A study of Mus musculus with 153 samples.

Results

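The Egr family, the early growth response zinc finger transcription factors, has the members Egr1, Egr2, Egr3 and Egr4. They were chosen by name, and all 4 were listed in each of 6 tables of raw read counts, among 23366 genes in the Camk2a 15 min table and 24391 genes in each of the others. In the GENCODE M21 annotation of GRCm38, Egr1 lies on chromosome 18, Egr2 at chr10:67535475-67542188 on the plus strand, Egr3 at chr14:70077203-70082614 on the plus strand and Egr4 at chr6:85511121-85513589 on the minus strand. Their levels are given as CPM, a gene's count scaled to the summed count of all listed genes in its library. Egr genes are immediate early genes: synaptic activity and the calcium and MAP kinase signals that follow switch them on within minutes, through serum response factor with its Elk partners and through CREB at their promoters, with no need for new protein. The proteins bind GC-rich sites in other promoters through a shared zinc finger domain, and the co-repressors Nab1 and Nab2 hold back several of them. In the hippocampus Egr1, also called Zif268, is widely used to mark recently active neurons and is needed in mice for lasting memory.

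The libraries came from dorsal hippocampus of mice of 3 genotypes, Camk2a.Cre/TRAPfl, Pvalb.Cre/TRAPfl and Sst.Cre/TRAPfl. All carried a floxed TRAP allele, and the Cre driver set which cells it marked: excitatory neurons for Camk2a, parvalbumin interneurons for Pvalb and somatostatin interneurons for Sst. In TRAP, tagged ribosomes are pulled down together with the mRNA bound to them, so each line gave a purified, ribosome-bound fraction and a total lysate with RNA of every cell. Mice had been conditioned with a shock in a new context (shock), had been put in that context without a shock (box) or had stayed in the home cage, in sets labelled 15 min and 60 min, each with home cage mice of its own. The age, strain background and sex of the mice are not given in the sources used here. The 151 libraries, 76 purified and 75 lysate, fell into 36 groups of 3 to 6 that the submitters call biological replicates, and what the p-values cover is the spread over these libraries.

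Total counts per library ran from 9043042 to 397228206. The purified fraction was checked against its label by an own-class score, the mean log2 CPM of the marker genes of a line's cells minus that of other classes. It ran from 5.91 to 7.85 in purified Camk2a libraries and from -0.57 to 2.75 in purified Pvalb libraries. In purified Sst libraries it ran from -4.89 to 2.66, and 12 of 25 of them were below 0, among them 4 of 5 shock libraries of the 15 min set and 4 of 4 of the 60 min set, so marker values stand beside the results on the Sst line. Egr3 was near 0 in the Camk2a 15 min table, with a median of 3.18 CPM over its lysates against 71.0 to 105 CPM in lysates of the other tables. Among 11446 genes compared, 10 were more than 16-fold lower in that table than in the others. Levels and purified responses of Egr3 are therefore not set against other tables from there, while the fits over lysates of the 3 lines kept it. The Camk2a 15 min table also lacked 1737 gene names of the other tables and held 712 names that they did not. Its CPM is thus scaled to another list of genes. Egr2 counts were even numbers in 128 of 151 libraries, against 82 to 89 for the other members.

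Promoters are shown for Egr2 and Egr4 only, and those of Egr1 and Egr3 were not examined. Egr2 and Egr4 had the largest log2 fold changes after shock in the lysates of the 15 min set, though Egr4 did not pass there. Both windows shown hold letters known from sites of CREB, and that of Egr2 also holds letters known from sites of serum response factor. RefSeq's GRCm38.p6 table held windows for these members, and each is printed up to the base before its start site. Egr2 (chr10:67537619-67537868, plus strand) is shown for 1 of 5 start sites, chosen after the matches were seen and among the richest in matches, and Egr4 (chr6:85513590-85513839) is read on the minus strand. Capitals mark a CArG box, the site of serum response factor, and TGACG or its reverse complement CGTCA, the core of the site of CREB. A CArG box was counted only as an exact match to CCWWWWWWGG, with W for A or T.
Egr2: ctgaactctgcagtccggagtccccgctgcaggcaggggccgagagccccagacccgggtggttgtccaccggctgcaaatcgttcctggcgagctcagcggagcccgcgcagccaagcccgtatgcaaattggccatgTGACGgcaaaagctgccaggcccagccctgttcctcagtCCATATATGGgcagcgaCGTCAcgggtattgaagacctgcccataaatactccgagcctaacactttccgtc
Egr4: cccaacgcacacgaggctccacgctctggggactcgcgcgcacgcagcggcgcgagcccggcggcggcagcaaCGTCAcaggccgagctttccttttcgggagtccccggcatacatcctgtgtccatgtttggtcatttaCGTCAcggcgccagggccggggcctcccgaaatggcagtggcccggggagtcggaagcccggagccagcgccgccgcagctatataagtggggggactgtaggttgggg
The Egr2 window held a CArG box 72 to 63 bases before the start, with TGACG 111 to 107 bases before it on the gene's strand and 55 to 51 bases before it on the opposite strand. The Egr4 window held TGACG at 177 to 173 and at 109 to 105 bases, both on the opposite strand, and no CArG box. Of the 5 Egr2 windows 4 held a CArG box and 3 held TGACG, and the window of the start site at 67535499 held neither. Both strands were searched, also for TGACGTCA, which overlaps TGACG, for the Egr site GCGNGGGCG and for TATAAA, none of which was in either window shown. Of 32817 promoter windows in the table, 1.47% held a CArG box, 17.7% TGACG, 1.55% TGACGTCA, 4.7% GCGNGGGCG and 12.4% TATAAA. A match is a run of letters and not a measured site.

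In home cage mice Egr1 was the member with the highest level per length in every group, and outside the Camk2a 15 min table, where Egr3 is near 0, Egr2 was the one with the lowest. Per kilobase of exon, lysate means of Egr1 lay between 36.04 and 59.1 CPM per kb over the 6 tables, and those of Egr2 between 0.507 and 1.77 CPM per kb. Egr3 lay between 17.5 and 25.2 CPM per kb in the 5 tables other than that one and Egr4 between 7.34 and 25.5 CPM per kb, and which of these 2 was higher differed between tables. In purified fractions Egr1 lay between 10.7 and 58.8, Egr2 between 0.204 and 1.29, Egr3 between 6.63 and 20.9 outside the Camk2a 15 min table and Egr4 between 5.28 and 28.6 CPM per kb. Home cage lysates of the same tissue differed between tables: mean lysate Egr4 was 15.8 ± 6.82 CPM in the Camk2a 15 min table (SD, n = 3) and 54.7 ± 13.1 CPM in the Pvalb 60 min table (SD, n = 6). Lysate Egr1 was 162 ± 2.88 CPM in the Camk2a 15 min table (SD, n = 3) and 265 ± 10.2 CPM in the Camk2a 60 min table (SD, n = 4), so tables of 1 line also differed beyond their spread. The Camk2a 15 min table has another list of genes than the rest, and the part of that in these differences was not tested.

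Over all 36 groups the purified Pvalb libraries stood lowest for Egr1 and the purified Pvalb home cage ones lowest for Egr4. Mean Egr1 ran from 48.0 ± 10.4 CPM in purified Pvalb home cage libraries of the 15 min set (SD, n = 4) through 75.8 ± 16.4 and 87.6 ± 15.0 CPM in the next groups, and the 6 lowest groups were the 6 purified Pvalb ones. Neighbours among them lay within 1 SD of each other apart from the first step, and a gap followed before the other 30 groups, which began at 162 ± 2.88 CPM in Camk2a home cage lysates of the 15 min set (SD, n = 3). Mean Egr4 was lowest at 11.3 ± 1.97 and 13.2 ± 5.38 CPM in purified Pvalb home cage libraries of the 60 and 15 min sets (SD, n = 6 and 4), which did not differ beyond their spread. It was highest at 98.3 ± 38.7 CPM in purified Camk2a box libraries of the 60 min set (SD, n = 3). Mean Egr3 was highest at 166 ± 43.5 CPM in purified Camk2a shock libraries of that set (SD, n = 5), and mean Egr2 at 38.0 ± 64.2 CPM in Camk2a shock lysates of the 15 min set (SD, n = 4), a mean set by 1 library.

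**Figure D1:**
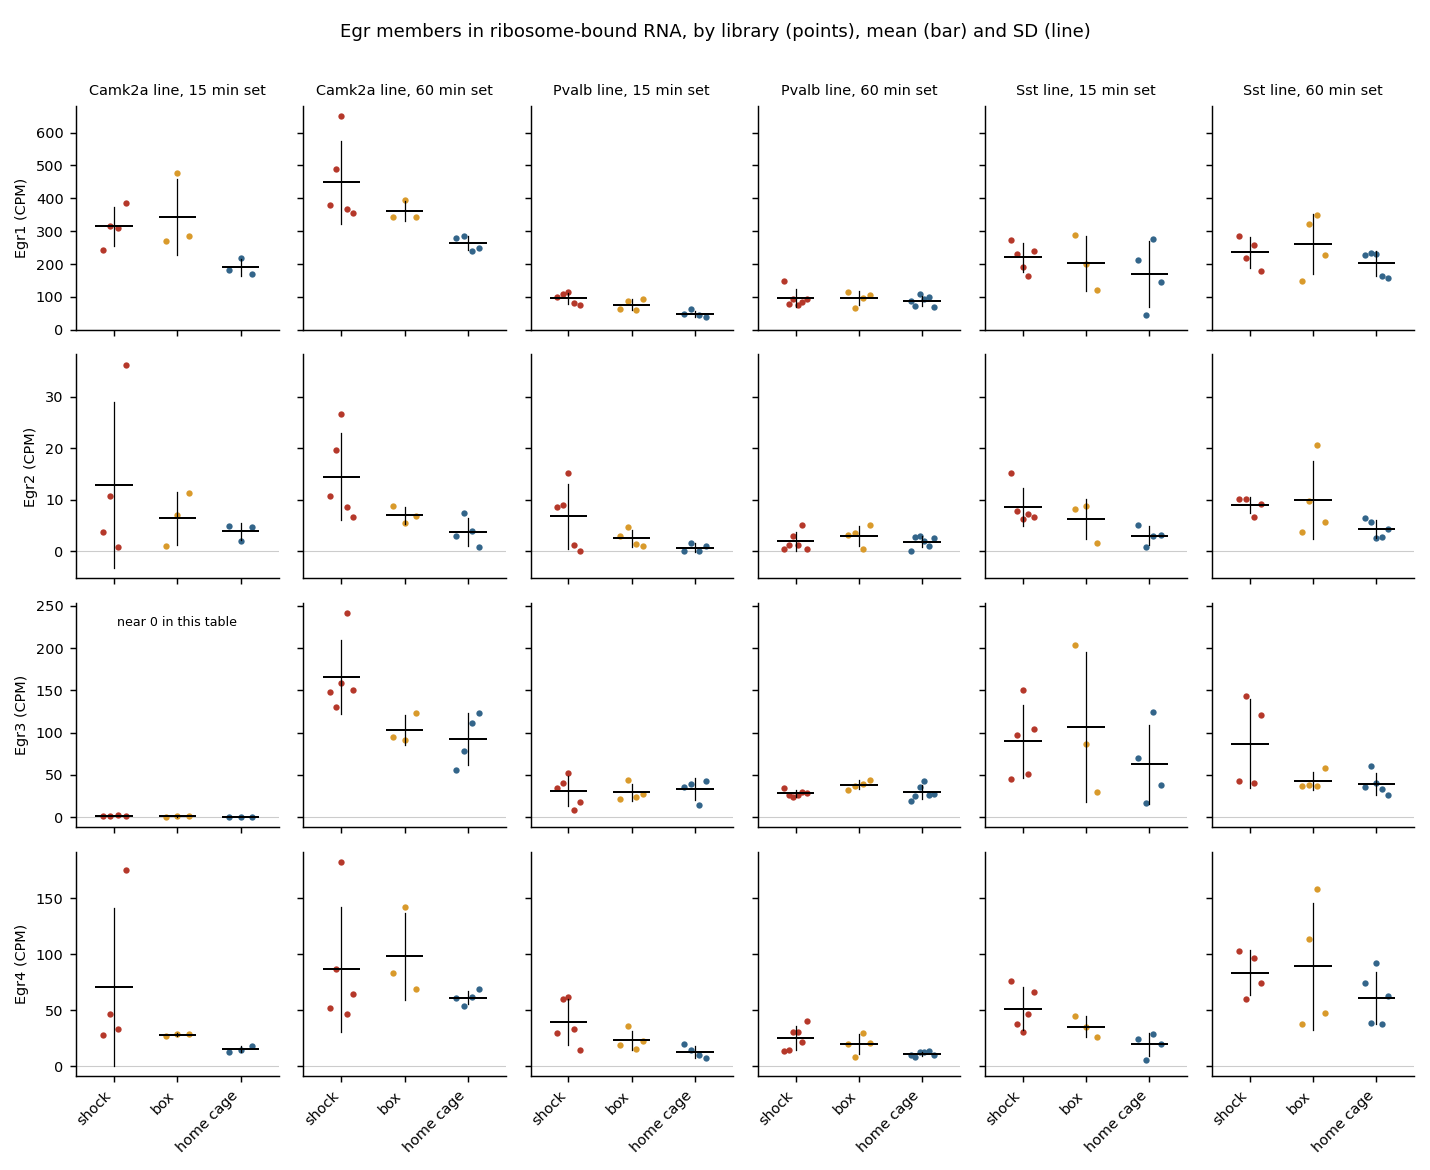
CPM of each member in each purified library (points), with group mean (bar) and SD (line), for shock, box and home cage in the 6 tables. Egr1 in the Camk2a line at 60 min lies between 355 and 651 CPM after shock and between 240.5 and 287 CPM in home cage, and Egr3 is near 0 in the Camk2a 15 min table.

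The purified Pvalb fraction held less Egr1, Egr3 and Egr4 mRNA than its lysates. In home cage mice of the 60 min set, Egr1 had a lowest, median and highest value of 68.1, 89.3 and 107 CPM in purified libraries, against 195, 239 and 268 CPM in lysates. The corresponding values of Egr3 were 19.6, 26.4 and 42.2 CPM in purified libraries, against 72.1, 77.0 and 82.8 CPM in lysates. Those of Egr4, a member known in mice mainly from the male germ line, were 8.35, 11.7 and 13.4 CPM in purified libraries, against 35.3, 57.1 and 69.6 CPM in lysates. For all 3 genes every purified library lay below every lysate, as was so for 24.9% of all genes tested. The log2 fold changes were -1.11 ± 0.17 for Egr1 (SE; edgeR adjusted p = 2.47e-06), -1.11 ± 0.23 for Egr3 (edgeR adjusted p = 0.000146) and -1.97 ± 0.25 for Egr4 (edgeR adjusted p = 5.67e-08). Egr2 ranged from 0 to 2.92 CPM in purified libraries and from 1.66 to 8.22 CPM in lysates and did not pass (edgeR adjusted p = 0.0977). In this comparison 49.8% of all genes passed and 26.4% passed as lower, so 3 of 4 members stood beside a large share of all genes. Pyramidal marker sums ran from 2018 to 2722 CPM in these purified libraries and from 5862 to 7225 CPM in the lysates. Their part in the Egr values was not tested. In bulk samples fewer cells of a type and less RNA per cell cannot be told apart.

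The 15 min set gave the same directions for Egr1 and Egr4 in the Pvalb line, with 2 of 4 members past the threshold, all lower, against 21.7% of all genes in either direction and 10.1% lower. Egr1 had 37.7, 43.9, 48.1 and 62.2 CPM in purified home cage libraries, against 135, 172 and 204 CPM in lysates (log2 fold change -1.54 ± 0.23, edgeR adjusted p = 7.18e-05). Egr4 had 7.64, 10.5, 14.6 and 20.02 CPM in purified home cage libraries, against 39.4, 45.2 and 55.8 CPM in lysates (-1.56 ± 0.33, edgeR adjusted p = 0.00143). No purified library of either gene reached the lowest lysate, as for 24.9% of all genes tested. Egr3 had a log2 fold change of -0.93 ± 0.44 (edgeR adjusted p = 0.13) and also had its purified libraries below its lysates, with a highest purified library of 43.0 CPM and a lowest lysate of 63.4 CPM.

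In the other lines fewer members passed. In the Camk2a line at 60 min 0 of 4 members passed, with 31.8% of all genes past the threshold, and Egr4 came nearest at 0.69 ± 0.30 (edgeR adjusted p = 0.08). In the Camk2a line at 15 min 1 of 4 members passed, Egr3, in the table where it is near 0, with 0.206, 0.308 and 0.484 CPM in purified libraries and 1.04, 1.75 and 2.82 CPM in lysates (-2.14 ± 0.72, edgeR adjusted p = 0.0401; 19.6% of all genes). Without lysate replicate 2 or 3 or any 1 of the 3 purified libraries that call was lost (edgeR adjusted p up to 0.144). In the Sst line 0 of 4 members passed in the 15 min set (29.9% of all genes) and 0 of 4 in the 60 min set (25.9%). There Egr4 had a log2 fold change of 0.97 ± 0.39 (edgeR adjusted p = 0.0639) and Egr3 of -0.96 ± 0.43 (edgeR adjusted p = 0.0947). The own-class score of these purified Sst home cage libraries was 0.07 ± 1.964 at 60 min (SD, n = 5; lowest -2.75) and 2.21 ± 0.48 at 15 min (SD, n = 4). Without purified Sst libraries of score below 0, the 60 min values were 0.60 for Egr4 (edgeR adjusted p = 0.376) and -0.93 for Egr3 (edgeR adjusted p = 0.236).

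**Figure D2:**
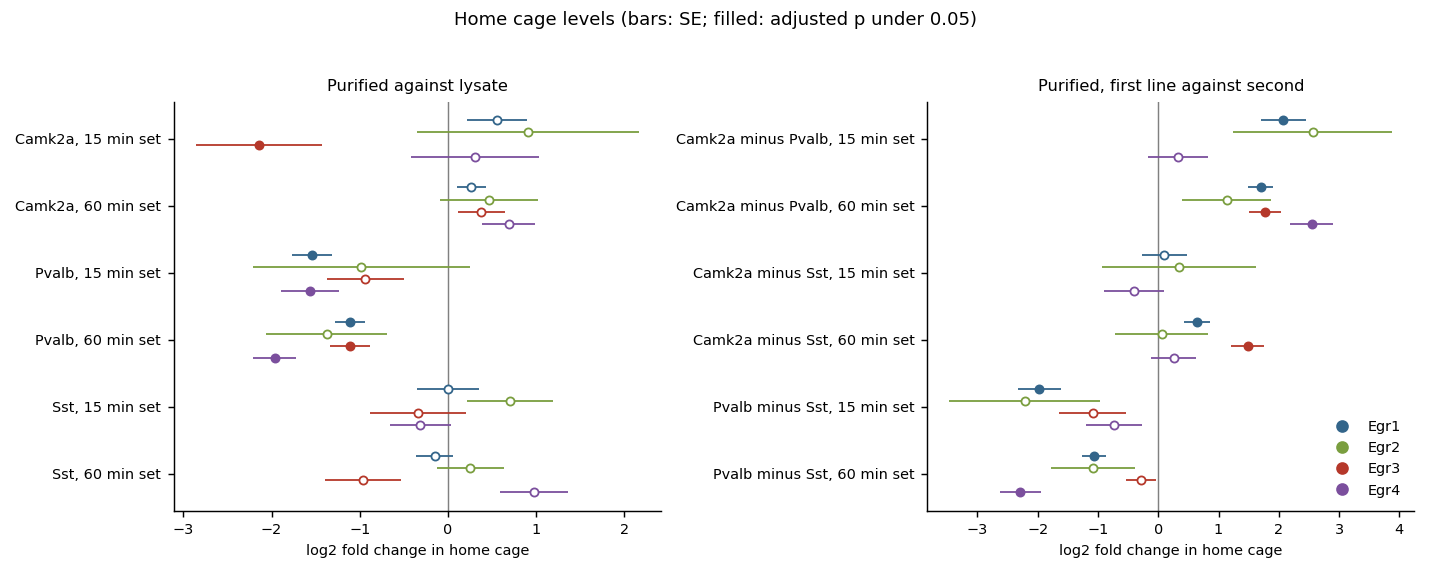
Log2 fold changes in home cage mice with SE, of purified fraction over lysate in each table (left) and of the first named line over the second in purified fractions (right), filled where the adjusted p is under 0.05. The Pvalb points lie left of 0 in the left panel for all members, and Egr1 of Camk2a minus Pvalb lies at 2.08 and 1.70 in the right panel.

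Between lines, ribosome-bound Egr1 in home cage was higher in Camk2a than in Pvalb libraries in both sets. The Camk2a libraries lay above every Pvalb library, as was so for 18.6% of all genes tested at 60 min and 13.2% at 15 min. At 60 min Egr1 had 240.5, 249.7, 278 and 287 CPM in Camk2a libraries, against a highest Pvalb library of 107 CPM (log2 fold change 1.70 ± 0.21, edgeR adjusted p = 1.18e-08). Egr3 had 56.1, 78.0, 111 and 123 CPM in Camk2a libraries, against at most 42.2 CPM in Pvalb libraries (1.77 ± 0.27, edgeR adjusted p = 7.38e-07). Egr4 had 54.1 to 69.1 CPM in Camk2a libraries, against at most 13.4 CPM in Pvalb libraries (2.55 ± 0.36, edgeR adjusted p = 2.2e-07). These 3 of 4 members stood in a comparison in which 51.8% of all genes passed and 24.7% passed as higher. At 15 min 1 of the 3 members that can be compared passed, against 15.2% of all genes: Egr1 had 170.1, 181 and 219 CPM in Camk2a libraries, against 37.7 to 62.2 CPM in Pvalb libraries (2.08 ± 0.37, edgeR adjusted p = 0.000281). Egr4 overlapped in that set, at 13.3 to 18.6 CPM in Camk2a and 7.64 to 20.02 CPM in Pvalb libraries.

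Set against the Sst line, Pvalb libraries were lower for Egr1 in both sets. At 60 min 2 of 4 members passed, Egr1 at -1.06 ± 0.20 (edgeR adjusted p = 3.75e-05) and Egr4 at -2.29 ± 0.34 (edgeR adjusted p = 1.76e-06), with 44.2% of all genes past the threshold. The own-class score was 1.51 ± 0.31 in those Pvalb libraries (SD, n = 6) and 0.07 ± 1.964 in the Sst libraries (SD, n = 5). Microglial sums ran from 90.8 to 124 CPM in the Pvalb libraries and from 155 to 3478 CPM in the Sst libraries. Pyramidal marker sums ran from 2018 to 2722 CPM in the Pvalb libraries and from 3643 to 7322 CPM in the Sst libraries. The part of pyramidal RNA in the result was not tested. Without Sst libraries of score below 0, Egr1 was at -0.98 (edgeR adjusted p = 0.0015) and Egr4 at -1.95 (edgeR adjusted p = 0.000222). At 15 min Egr1 passed, 1 of 4 members against 0.0548% of all genes, with 37.7 to 62.2 CPM in Pvalb and 43.9, 144, 212 and 278 CPM in Sst libraries (-1.97 ± 0.36, edgeR adjusted p = 0.0362). The lowest Sst library overlapped with the Pvalb group, and the own-class score was 1.61 ± 0.35 in these Pvalb and 2.21 ± 0.48 in these Sst libraries (SD, n = 4 each). That call was lost without any 1 of the 4 Pvalb libraries and without Sst replicate 1 or 3 (edgeR adjusted p up to 0.181). Camk2a minus Sst passed for 2 of 4 members at 60 min (24.4% of all genes), Egr3 at 1.48 ± 0.28 (edgeR adjusted p = 0.000129) and Egr1 at 0.64 ± 0.22 (edgeR adjusted p = 0.0276), and for 0 of 3 at 15 min (9.5%). The Egr1 call was lost without Camk2a replicate 1, 2 or 3, without Sst replicate 2, 4 or 5 (edgeR adjusted p up to 0.161), with DESeq2, and without the purified Sst libraries of own-class score below 0 (0.71, edgeR adjusted p = 0.0548). Egr3 was then at 1.39 (edgeR adjusted p = 0.000582). Lines were counted in separate tables, so line and table cannot be told apart.

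After shock, lysates of the 15 min set gave the clearest response of the family. Egr2, best known for its part in myelination and hindbrain patterning, had 12.7, 15.0, 15.2, 16.7 and 20.4 CPM in shock lysates of the Sst line, against 1.12, 2.19, 3.32 and 4.21 CPM in its home cage lysates. In the Pvalb line it had 9.20, 9.23, 12.2, 13.8 and 17.7 CPM after shock, against 1.23, 1.59 and 2.35 CPM in home cage. In the Camk2a line it had 5.17, 5.74, 6.89 and 134 CPM after shock, against 0.787, 2.30 and 4.77 CPM in home cage. In each line every shock lysate lay above every home cage lysate, and 1 Camk2a shock lysate stood far above the rest. Shock lysates lay above home cage lysates in all 3 lines for 0.0642% of all genes tested. Over the 3 lines, with line as a covariate, Egr2 rose by a log2 fold change of 3.03 ± 0.45 (SE; edgeR adjusted p = 0.000585).

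Egr1 rose with it, by 0.79 ± 0.15 on the log2 scale (edgeR adjusted p = 0.0147). Its shock lysates held 380.4, 429.9, 432, 443 and 448 CPM in the Sst line, against 201, 243, 253 and 265 CPM in home cage. In the Pvalb line they held 205, 209, 218, 322 and 387 CPM, against 135, 172 and 204 CPM in home cage. In the Camk2a line they held 197, 217, 245 and 622 CPM, against 158, 163 and 163 CPM in home cage. Again no shock lysate of a line reached down into its home cage group, though in the Pvalb line the nearest ones differed by little. Egr1 and Egr2 were 2 of 4 members past the threshold, while 20 of 15588 genes, 0.128%, passed in all, every one as higher. Leaving out any 1 of the 24 shock and home cage lysates kept both calls. No gene of the 8 cell type marker lists passed in these lysates. Neither member passed in the 2 fits that left out the Pvalb line (Egr1 0.86, Egr2 3.13, edgeR adjusted p = 0.214 for both) or the Sst line (Egr1 0.79, edgeR adjusted p = 0.999; Egr2 3.33, edgeR adjusted p = 0.285).

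Egr4 did not pass in the lysates of this set, at 1.18 ± 0.26 (edgeR adjusted p = 0.0606). It had 62.8 to 74.4 CPM in shock lysates of the Sst line, against 30.7 to 39.0 CPM in home cage, and 62.1 to 88.5 CPM in those of the Pvalb line, against 39.4 to 55.8 CPM. The Camk2a line overlapped, at 20.4, 21.2, 36.8 and 193 CPM after shock, against 10.9, 12.8 and 23.5 CPM in home cage. Without replicate 4 of the Camk2a shock lysates, which held the highest Egr1, Egr2 and Egr4 values, the 3 log2 fold changes were 0.66 (edgeR adjusted p = 0.00892), 2.28 (2.78e-06) and 0.81 (0.00343), so Egr4 then passed with a smaller change. It also passed without replicate 1 or 2 of those lysates or replicate 2 of the Pvalb shock lysates, at 1.22 to 1.23 (edgeR adjusted p from 0.024 to 0.0489). Egr3 was at 0.18, with shock and home cage lysates overlapping in every line (edgeR adjusted p = 0.867).

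**Figure D3:**
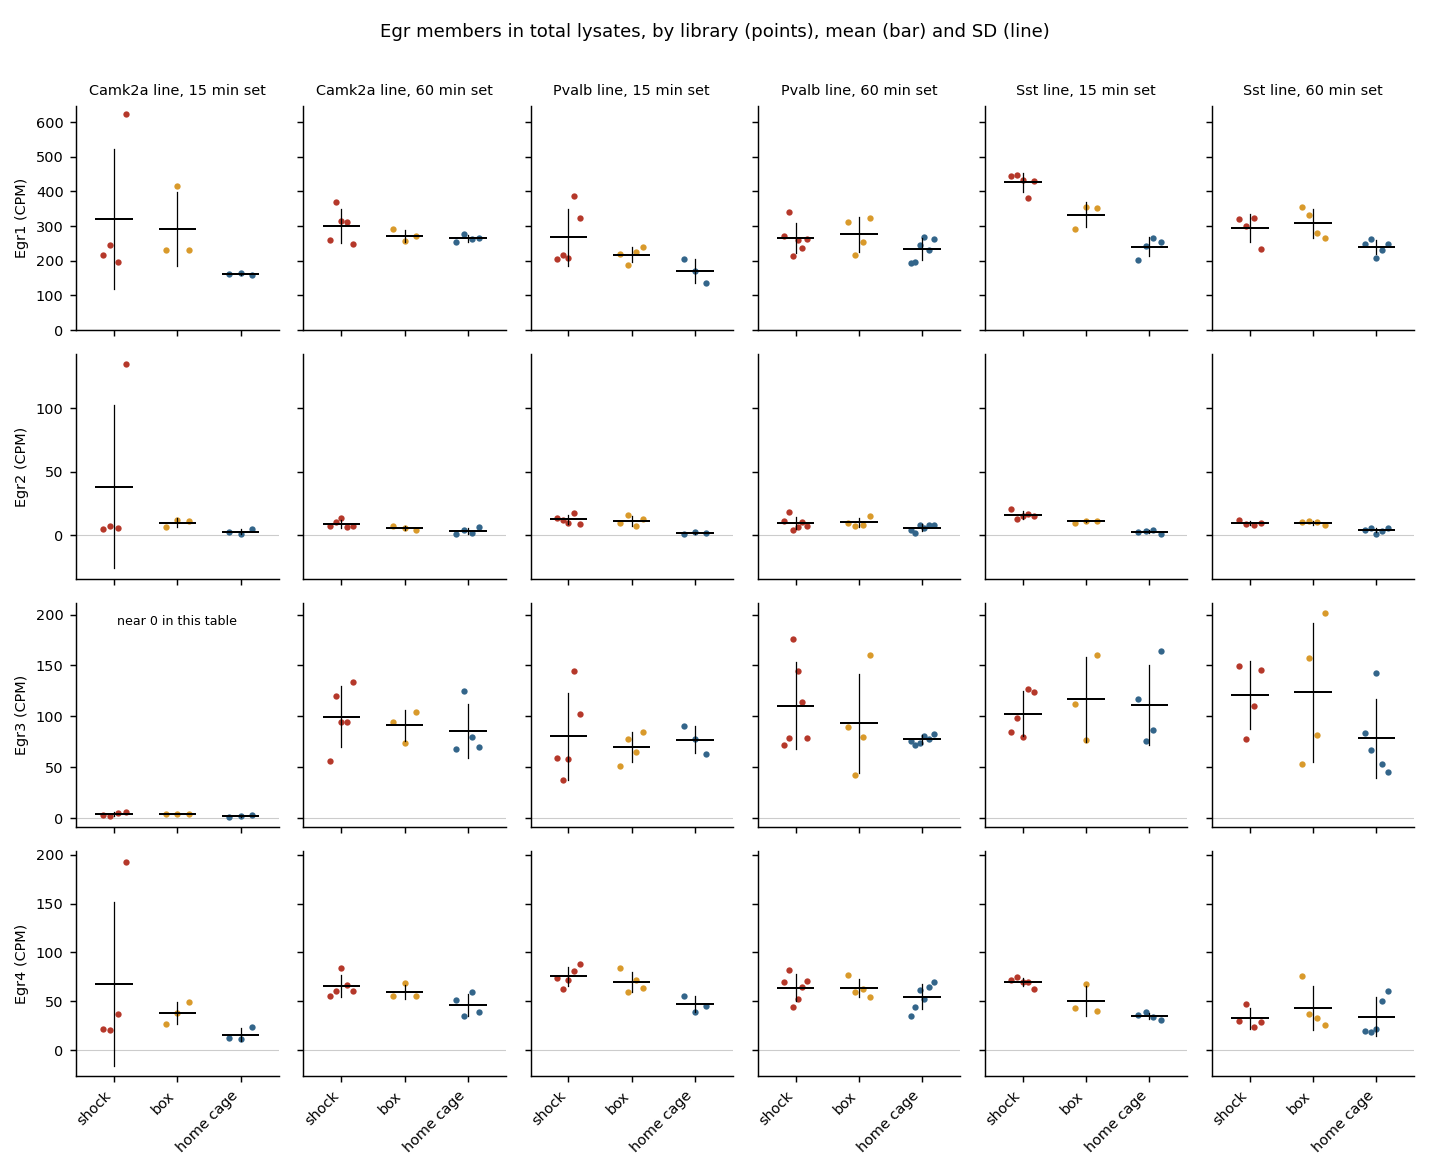
CPM of each member in each lysate (points), with group mean (bar) and SD (line), for shock, box and home cage in the 6 tables. Egr2 after shock at 15 min lies between 5.17 and 20.4 CPM apart from 1 Camk2a library at 134 CPM, and home cage lysates of that set lie at 4.77 CPM or lower.

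In the 60 min lysates 0 of 4 members passed, as did 0% of all 16272 genes (536 genes at an unadjusted p under 0.05). Egr2 had 8.13 to 11.7 CPM in shock lysates of the Sst line, against 1.08 to 5.68 CPM in home cage, while in the Pvalb and Camk2a lines shock and home cage lysates overlapped. The log2 fold change of Egr2 was 1.13 ± 0.25 (edgeR adjusted p = 0.225), with DESeq2 passing it (adjusted p = 0.0037). That of Egr1 was 0.25 ± 0.09 and that of Egr3 0.48 ± 0.22 (edgeR adjusted p = 1.0 for both). The difference of the shock response between the sets, 60 min minus 15 min, was -1.91 ± 0.47 for Egr2 (edgeR adjusted p = 0.201), -0.90 ± 0.28 for Egr4 and -0.54 ± 0.17 for Egr1 (edgeR adjusted p = 0.925 for both). None of the 4 members passed it, and 0.0246% of all genes did. Without Camk2a shock replicate 4 of the 15 min set the Egr2 difference was -1.16 (edgeR adjusted p = 0.911).

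In the purified Camk2a fraction at 60 min, Egr1 and Egr3 passed for shock against home cage. Egr1 had 355, 366, 381, 488 and 651 CPM after shock and 344, 344 and 395 CPM in box libraries, against 240.5, 249.7, 278 and 287 CPM in home cage. Egr3 had 129.97, 148, 150.5, 158 and 241 CPM after shock and 91.5, 94.3 and 123 CPM in box libraries, against 56.1, 78.0, 111 and 123 CPM in home cage. For both genes every shock library lay above every home cage library, and for Egr1 the box libraries did too. All shock libraries lay above all home cage libraries for 4.52% of all genes tested, and all box libraries did so for 1.64%. The log2 fold changes were 0.81 ± 0.18 for Egr1 (edgeR adjusted p = 0.0475) and 0.92 ± 0.23 for Egr3 (edgeR adjusted p = 0.0496). These were 2 of 4 members, while 2.3% of all genes passed and 1.66% passed as higher.

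Egr2 came close in the same comparison, at 1.97 ± 0.52 (edgeR adjusted p = 0.0535). It had 6.61, 8.60, 10.8, 19.8 and 26.7 CPM after shock, against 0.908, 2.99, 3.97 and 7.44 CPM in home cage, so that 1 home cage library lay above the lowest shock library. Egr4 had 46.9 to 182 CPM after shock and 54.1 to 69.1 CPM in home cage (edgeR adjusted p = 0.306). Its box libraries, at 69.6 to 142 CPM, all lay above home cage, the lowest one barely. The calls of Egr1 and Egr3 were lost without any 1 of the 4 home cage libraries and without shock replicate 1, 4 or 5 (edgeR adjusted p up to 0.167), and with sex, called from Y-linked genes, as a covariate (edgeR adjusted p = 0.181 for Egr1 and 0.187 for Egr3, at log2 fold changes of 0.85 and 0.91). By that measure 1 of 5 shock and 3 of 4 home cage libraries were male. With the own-class score as a covariate they were lost as well (0.78 for Egr1 and 0.95 for Egr3, edgeR adjusted p = 0.0557 for both). With offsets for GC content and length Egr3 was lost (1.1, edgeR adjusted p = 0.0749) and Egr1 was at 1.24 (edgeR adjusted p = 0.0134). The own-class score itself was 7.31 ± 0.30 after shock, against 7.26 ± 0.53 in home cage (SD, n = 5 and 4).

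In the purified Camk2a fraction at 15 min 0 of 4 members passed, as did 0% of all genes (8.86% at an unadjusted p under 0.05). Egr4 had 28.1, 33.5, 46.6 and 176 CPM after shock and 27.1, 29.2 and 29.2 CPM in box libraries, against 13.3, 14.5 and 18.6 CPM in home cage. Egr1 had 243, 311, 317 and 387 CPM after shock and 269.6, 284 and 478 CPM in box libraries, against 170.1, 181 and 219 CPM in home cage. Neither gene overlapped between shock and home cage, as was so in this direction for 4.19% of all genes tested, and 1 shock library set the height of the Egr4 mean. The log2 fold changes against home cage were 2.16 ± 0.53 for Egr4 and 0.72 ± 0.23 for Egr1 (edgeR adjusted p = 0.503 for both), and DESeq2 passed Egr4 (adjusted p = 0.00568). Egr2 ran from 0.757 to 36.3 CPM after shock and from 2.02 to 4.997 CPM in home cage. Egr3 ran from 0.861 to 2.02 CPM after shock and from 0.206 to 0.484 CPM in home cage, in the table where it is near 0. The Egr4 response at 60 min minus that at 15 min was -1.71 ± 0.63 (edgeR adjusted p = 0.102), and 0 of the 3 members that can be compared passed, with 5.71% of all genes past the threshold.

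**Figure D4:**
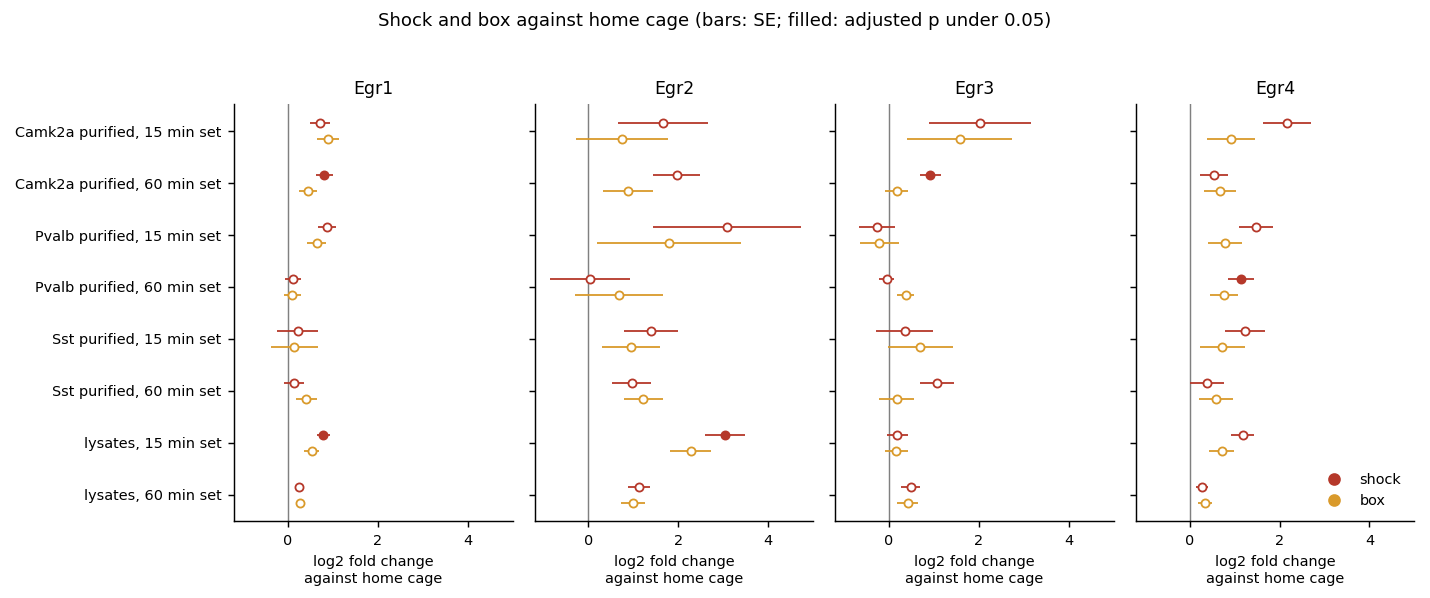
Log2 fold changes of shock and box (separate colours) against home cage with SE for each member, in the purified fraction of each table and in the lysates of both sets, filled where the adjusted p is under 0.05. The filled points are Egr1 and Egr2 in 15 min lysates, Egr1 and Egr3 in the Camk2a line at 60 min and Egr4 in the Pvalb line at 60 min.

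In purified Pvalb libraries at 60 min Egr4 passed, 1 of 4 members, in a comparison in which 35% of all genes passed and 19.7% passed as higher. Its lowest, median and highest values were 13.5, 26.3 and 40.8 CPM after shock, against 8.35, 11.7 and 13.4 CPM in home cage, and the 4 box libraries held 8.13, 20.3, 20.8 and 30.1 CPM. Every shock library lay above every home cage library, the lowest one barely, as was so for 7.9% of all genes tested, and 1 box library lay below them all. The log2 fold change was 1.14 ± 0.29 (edgeR adjusted p = 0.00551). With offsets for GC content and length it was 0.10 (edgeR adjusted p = 0.826), and the own-class score was 1.497 ± 0.308 after shock, against 1.51 ± 0.31 in home cage (SD, n = 6 each). The longest Egr4 transcript has the highest GC content of the members, 68.2% against 51.3% to 57.3%. Egr1, Egr2 and Egr3 had log2 fold changes between -0.06 and 0.12 (edgeR adjusted p from 0.647 to 0.981). Egr1, for example, had a lowest, median and highest value of 75.9, 89.0 and 149 CPM after shock, against 68.1, 89.3 and 107 CPM in home cage.

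In the 15 min Pvalb set Egr1 and Egr4 had positive log2 fold changes of lower certainty, and 0 of 4 members passed, as did 0% of all genes (15.6% at an unadjusted p under 0.05). Egr1 had 75.6, 79.9, 98.0, 108 and 114 CPM after shock and 60.5, 62.8, 87.7 and 92.0 CPM in box libraries, against 37.7, 43.9, 48.1 and 62.2 CPM in home cage. Egr4 had 14.8, 30.2, 33.0, 59.9 and 62.4 CPM after shock and 15.6, 19.01, 22.5 and 35.7 CPM in box libraries, against 7.64, 10.5, 14.6 and 20.02 CPM in home cage. Egr1 did not overlap between shock and home cage, as was so in this direction for 2.67% of all genes tested, and Egr4 overlapped in 1 shock library. The log2 fold changes were 0.86 ± 0.20 for Egr1 and 1.47 ± 0.38 for Egr4 (edgeR adjusted p = 0.239 for both), and DESeq2 passed both (adjusted p = 0.00472 for Egr1 and 0.0155 for Egr4). With offsets for GC content and length they were 0.39 and 0.82. The own-class score was 1.001 ± 1.58 after shock, against 1.61 ± 0.35 in home cage (SD, n = 5 and 4), and 6 of 8 microglial markers were higher with none past the threshold. Microglial marker genes summed to 49.5 to 357 CPM in these shock libraries, against 106 to 110 CPM in home cage. Pyramidal marker sums ran from 1594 to 4753 CPM after shock and from 1921 to 2627 CPM in home cage. GABA neuron sums ran from 1417 to 4083 CPM after shock and from 3486 to 4425 CPM in home cage. Astrocyte sums ran from 1457 to 5541 CPM after shock and from 2319 to 2711 CPM in home cage. The part of these markers in the result was not tested. The Egr1 response at 60 min minus that at 15 min was -0.79 ± 0.27 (edgeR adjusted p = 0.453), with 0 of 4 members and 0% of all genes past the threshold (9.2% at an unadjusted p under 0.05).

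In purified Sst libraries 0 of 4 members passed for shock against home cage in the 15 min set, with 1.21% of all genes past the threshold and 1.11% as higher. Egr4 had 30.8, 38.0, 46.5, 66.9 and 76.2 CPM after shock, against 5.70, 19.98, 24.2 and 29.2 CPM in home cage (1.23 ± 0.45, edgeR adjusted p = 0.14). Egr2 had 6.38, 6.64, 7.22, 7.77 and 15.3 CPM after shock, against 0.829, 2.98, 3.23 and 5.17 CPM in home cage (1.39 ± 0.59, edgeR adjusted p = 0.197). Shock libraries of both lay above all home cage libraries, as was so for 4.69% of all genes tested. In the same comparison 8 of 8 microglial markers rose and 0 of 8 GABA neuron markers were higher. Microglial sums ran from 72.7 to 5612 CPM after shock and from 78.4 to 117 CPM in home cage. Pyramidal marker sums ran from 4797 to 9612 CPM after shock and from 1840 to 4250 CPM in home cage. The part of these markers in the result was not tested. Without the libraries of own-class score below 0, 1 shock library was left, with log2 fold changes of 1.85 ± 0.70 for Egr4 and 2.24 ± 0.94 for Egr2 (edgeR adjusted p = 0.774 for both); that library was assumed to vary like the other groups.

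In the 60 min Sst set 0 of 4 members passed, with 4.49% of all genes past the threshold. Egr3 had 40.2, 43.3, 121 and 143 CPM after shock and 36.8, 36.9, 38.4 and 58.3 CPM in box libraries, against 26.5, 33.7, 35.1, 40.1 and 60.4 CPM in home cage (1.07 ± 0.39 against home cage, edgeR adjusted p = 0.13). Egr2 had 6.68, 9.17, 10.1 and 10.1 CPM after shock, against 2.67, 2.74, 4.36, 5.62 and 6.53 CPM in home cage (0.96 ± 0.43, edgeR adjusted p = 0.219). The shock values of Egr3 fell into a low and a high pair, while those of Egr2 lay together above home cage, as was so for 6.82% of all genes tested. GABA neuron markers fell in 6 of 8 cases and Sst markers in 4 of 6. GABA neuron sums were at most 567 CPM in the shock libraries, against 717 to 2749 CPM in home cage, and Sst marker sums were 160 to 474 CPM in the shock libraries, against 423 to 8344 CPM in home cage. Astrocyte sums were 5065 to 5277 CPM in those shock libraries and 4608 to 4831 CPM in the shock lysates of the set, so by these markers the purified shock libraries of that set lay near the lysate. Their part in the result was not tested.

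Box against home cage gave 0 of 4 members past the threshold in each of the 6 purified tables and in both lysate sets, and DESeq2 passed none of them either. No gene of the whole tables passed (0%, with 0.485% to 11.3% at an unadjusted p under 0.05) except in the 15 min lysates, where 2 genes, 0.0128%, did: Arc and Nr4a1. The largest difference there was that of Egr2 in the 15 min lysates, at 2.27 ± 0.46 (edgeR adjusted p = 0.102). Its box lysates held 9.91, 11.2 and 11.6 CPM in the Sst line, 7.13, 9.89, 12.4 and 16.0 CPM in the Pvalb line and 6.23, 11.3 and 12.4 CPM in the Camk2a line. In each line they lay above all home cage lysates listed above, as was so for 0.0449% of all genes tested. Egr1 was at 0.53 ± 0.16 and Egr4 at 0.71 ± 0.28 in those lysates (edgeR adjusted p = 0.998 for both). Without the Camk2a line Egr2 passed (edgeR adjusted p = 2.31e-05).

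In the 60 min lysates the box values were 0.27 ± 0.10 for Egr1, 0.99 ± 0.26 for Egr2 and 0.34 ± 0.15 for Egr4 (edgeR adjusted p = 1.0 for each). In purified fractions Egr1 of the Camk2a line was at 0.89 ± 0.24 at 15 min and at 0.45 ± 0.20 at 60 min, and Egr1 of the Pvalb line at 0.64 ± 0.21 at 15 min (edgeR adjusted p = 1.0 for each). At 15 min 2.73% of all genes in the Camk2a line and 1.68% in the Pvalb line had an unadjusted p under 0.05 for box against home cage. Egr4 of the Pvalb line was at 0.76 ± 0.31 at 60 min (edgeR adjusted p = 0.385), and Egr2 of the Sst line at 1.22 ± 0.44 at 60 min (edgeR adjusted p = 1.0).

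Shock set directly against box gave 0 of 4 members in every table and in both lysate sets, also with DESeq2. The share of all genes past the threshold was 8.18% in the purified Sst libraries at 60 min and 0% in the other 7 comparisons (0.891% to 20.5% at an unadjusted p under 0.05). The differences with an unadjusted p under 0.05 were Egr3 at 0.75 ± 0.25 in the Camk2a line at 60 min (edgeR adjusted p = 0.261), at 0.89 ± 0.41 in the Sst line at 60 min (0.195) and at -0.43 ± 0.19 in the Pvalb line at 60 min (0.214), and Egr4 at 1.24 ± 0.51 in the Camk2a line at 15 min (0.541). Egr3 in Pvalb libraries had a lowest, median and highest value of 23.7, 27.4 and 34.9 CPM after shock, against 32.4, 37.4, 39.2 and 44.5 CPM in box libraries. There 5 of 6 shock libraries lay below every box library, and all did so for 1.41% of all genes tested. For Egr3 in the purified Camk2a libraries at 60 min every shock library lay above every box library, as for 2.99% of all genes tested. The same held for Egr1 and Egr2 in the Sst lysates at 15 min, while those of the other lines overlapped. Shock lysates lay above box lysates in all 3 lines for 0% of all genes.

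The responses themselves were also set against each other. The shock response of Egr3 at 60 min was larger in the purified Camk2a than in the purified Pvalb fraction, by 0.95 ± 0.37 on the log2 scale (edgeR adjusted p = 0.0403). It was the 1 member of 4 that passed, with 37.6% of all genes past the threshold and 16.8% higher, and the adjusted p was above 0.05, up to 0.0809, without any 1 of 8 of the 21 libraries: Camk2a home cage replicates 1 and 2 and shock replicate 4, and Pvalb home cage replicates 4 and 6 and shock replicates 3, 4 and 6. That of Egr1 was 0.68 ± 0.29 (edgeR adjusted p = 0.0581). At 15 min 0 of 3 members passed, as did 0.00609% of all genes. Shock responses of the purified fraction minus those of the lysate passed for 0 of 4 members in each of the 6 tables, with 20.4% of all genes past the threshold in the Pvalb 60 min table, 1.58% in the Sst 15 min table and under 0.05% in the others. The nearest were Egr4 in Pvalb at 60 min (0.84 ± 0.34, edgeR adjusted p = 0.0708) and Egr1 in Camk2a at 60 min (0.64 ± 0.23, edgeR adjusted p = 0.328).

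Genes around the family were taken from lists of its co-repressors, the kinases and factors that switch it on, 11 reported targets, 6 other GC-box factors and 28 other rapid activity genes. Arc stands on the lists of targets and of rapid activity genes, and both co-repressors on that of targets. In the 15 min lysates 9 of 28 rapid activity genes rose after shock, beside 0.128% of all genes. In all 24 of the 28 were higher, with a median log2 fold change of 0.65 against 0.00 over all genes. Nr4a1, an orphan nuclear receptor, was at 1.32 ± 0.14 (edgeR adjusted p = 7.85e-07) and Fos, a subunit of AP-1, at 2.10 ± 0.35 (edgeR adjusted p = 0.00284). Of the 11 targets 1 rose, Arc, a regulator of AMPA receptor traffic at synapses (1.59 ± 0.19, edgeR adjusted p = 7.53e-06), and 0 of 2 co-repressors, 0 of 12 upstream genes and 0 of 6 GC-box factors passed. Nab2 was at 0.38 ± 0.11 (edgeR adjusted p = 0.451). In the 60 min lysates 0 genes of the 5 lists passed, and 25 of 28 rapid activity genes were higher, at a median of 0.17 against -0.02.

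In purified Camk2a libraries at 60 min 2 of 28 rapid activity genes rose, beside 1.66% of all genes: Fbxo33, a part of ubiquitin ligases (0.81 ± 0.20), and Dusp6, a MAP kinase phosphatase (0.71 ± 0.18, edgeR adjusted p = 0.0496 for both). Of the 12 upstream genes 1 fell, Map2k2, a MAP kinase kinase, which fell by 0.68 ± 0.16 on the log2 scale (edgeR adjusted p = 0.0475), and 0 of 11 targets passed. No gene of the whole table passed that comparison once a covariate for sex or for own-class score was added. In purified Pvalb libraries at 60 min, where 19.7% of all genes passed as higher and 15.3% as lower, Nab2 rose (1.01 ± 0.25, edgeR adjusted p = 0.00559) and Nab1 fell by 0.71 ± 0.27 on the log2 scale (edgeR adjusted p = 0.0465). There 8 of 28 rapid activity genes rose and 5 fell, 3 of 11 targets rose and 2 fell, and 3 of 6 GC-box factors fell, namely Sp1, Sp3 and Sp4, counts to be read against those shares. Arc was at 1.16 ± 0.27 (edgeR adjusted p = 0.00361). In purified Sst libraries 4 of 28 rapid activity genes rose at 15 min, beside 1.11% of all genes, and 5 at 60 min, beside 2.34%, among them Nr4a1 in both (2.51 ± 0.36, edgeR adjusted p = 0.0339, and 0.95 ± 0.21, edgeR adjusted p = 0.0274), beside the marker differences given above. The others that rose were Junb, Ier2 and Dusp5 at 15 min, with the target Psmb9, an immunoproteasome subunit (3.65 ± 0.75, edgeR adjusted p = 0.0423), and at 60 min Btg2 (1.91 ± 0.21, edgeR adjusted p = 0.00209), Trib1 and Dusp5 among 5, the upstream factor Elk1 and the GC-box factors Klf9 and Klf13. In the 15 min Camk2a and Pvalb purified comparisons 0 genes of these lists passed, as did 0% of all genes. There 22 and 23 of 28 rapid activity genes were higher, at medians of 0.83 and 0.74. Neither these counts nor these medians are set here against all genes, so they show no rise particular to the list.

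Across the 36 group means of log2 CPM, the genes whose pattern was most like a member's differed from member to member. They were Plk2, a kinase (Pearson r = 0.901), Ust (0.900) and Bhlhe40 (0.897) for Egr1, and Egr1 itself (0.845), Arc (0.769) and Tnfrsf9 (0.766) for Egr2. For Egr4 they were Arc (0.924), Junb (0.923) and Nab2 (0.919). For Egr3, over the 30 means outside the Camk2a 15 min table, they were Mmd (0.949), Bdnf, a neuronal growth factor (0.943), and Klhl2 (0.941). The points share lines, sets and lysates, so these values describe the groups and were not tested.

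Within groups, single libraries deviated from their group mean in a different pattern. Over 151 libraries the deviations of Egr1 and Egr4 had a Pearson r of 0.612 and a Spearman rho of 0.544, and r was 0.526 without the 2 libraries farthest from the median of Egr1. Among 13505 other genes Egr4 ranked first for likeness to Egr1. Egr4 in turn was most like Junb (r = 0.867) and Arc (0.811), both rapid activity genes. Over the 131 libraries outside the Camk2a 15 min table, Egr3 was most like Gpm6a (0.881), Ids (0.848) and Wasf1 (0.846), genes of neuronal membrane, lysosome and actin, and its r with Egr4 was -0.01. Its r with Egr1 was 0.375, and 0.246 without the 2 farthest libraries. Egr2 deviated most like Wnt7a (0.533), Slc9a4 (0.531) and Aldh3b2 (0.529). Libraries differ in depth and in marker content, which these values share and which was not taken out.

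**Figure D5:**
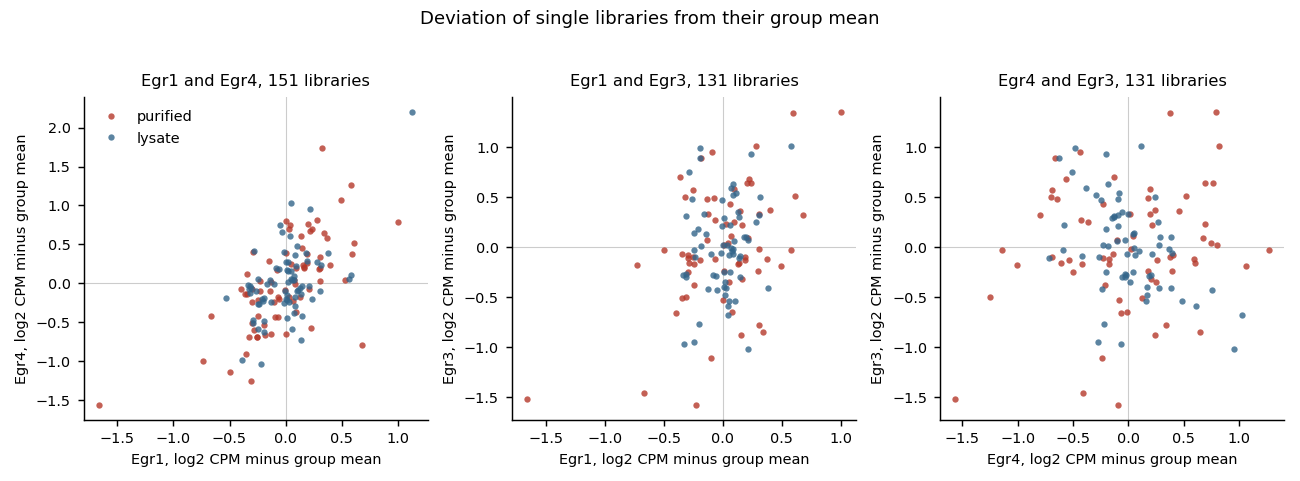
Deviation of each library from its group mean in log2 CPM, for Egr1 and Egr4 (left), Egr1 and Egr3 (middle) and Egr4 and Egr3 (right), with purified libraries and lysates as separate colours. The points rise together in the left panel (Pearson r = 0.612) and show no common direction in the right panel (-0.01).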

How the data were processed

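The authors deposited 6 tables of raw read counts per gene, 1 for each line and set. The submitters' processing notes name STAR 2.7.7a, featureCounts, DESeq2 and GRCm38. No source used here names the annotation used for counting. Per the labels' protocols, RNA was extracted with RNeasy kits and libraries were made with Nextera XT, which does not mark strand, so reads of overlapping or antisense genes cannot be told apart. The tables held 151 columns for 153 samples, and 2 samples were not analysed here. The name of 1 lysate column of the Pvalb 15 min table matched no label, and 1 name stood on 2 purified home cage columns of the Pvalb 60 min table, whose counts differed beyond sampling noise. These 3 columns were used as replicates of their group with no number, and whether those 2 come from 1 mouse is not known. CPM was computed from the deposited counts over the listed genes. Comparisons used R 4.3.3 and edgeR 4.0.16, with its filter on low counts, TMM scaling and its quasi-likelihood test, on all genes of the table or tables compared, with Benjamini-Hochberg adjustment and a threshold of 0.05. Lysates of the 3 lines entered 1 fit, which had line as a covariate. The SE of a log2 fold change was taken as its size over the root of F. The main edgeR fit was tested on simulated counts with known changes, for some of the comparisons. Alternatives were DESeq2 1.42.0, its size factors in edgeR, no filter on low counts, a replicate block, covariates for own-class score and sex, offsets for GC content and length, leaving out a line, and leaving out each library. Leaving out purified Sst libraries of own-class score below 0 was added after seeing the data. Replicate numbers were not treated as pairs, so apart from the replicate block purified and lysate libraries entered the fits as independent. Those of the same number deviated together with median correlations of 0.0144 to 0.114. Differences in sex call within these pairs ran from 0 of 10 in the Camk2a 15 min table to 4 of 14 in the Pvalb 60 min table. Whether libraries of 1 number come from 1 mouse is not known. No 2 replicates, that pair included, agreed within sampling noise (smallest reduced chi-square 20.7 over 257 pairs). A member's fold change is given where its unadjusted p was under 0.05, others by their values or range. The genes most like a member are the 3 of highest Pearson r. Up to 4 genes of a list are named, by smallest p. The members and lists were chosen with earlier results of these data known. Depth sets the counting error, which is largest for Egr2, at 0 in 4 libraries, and for Egr3 in the Camk2a 15 min table.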

Additional observations from a re-analysis of the deposited data

Results flagged for a closer look

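In 9 of 108 sets of 1 gene in 1 group of 4 to 6 libraries, a single library stood far from the rest by the gap between it and its nearest neighbour, and chance alone gives about 1 in 20. Replicate 4 of the Camk2a shock lysates of the 15 min set was the highest of its group for 3 genes, at 622 CPM for Egr1, 134 CPM for Egr2 and 193 CPM for Egr4. The purified library of the same number held 176 CPM of Egr4. Replicate 4 of the purified Camk2a shock libraries of the 60 min set held 241 CPM of Egr3. Replicate 1 of the purified Pvalb shock libraries of that set held 149 CPM of Egr1. Replicate 4 of the Sst shock lysates of the 15 min set was the lowest for Egr1, at 380.4 CPM. Replicate 1 of the purified Sst shock libraries of that set held 15.3 CPM of Egr2, and it was the shock library of the group whose own-class score was above 0. Replicate 4 of the purified Sst box libraries of the 60 min set held 58.3 CPM of Egr3. The shock response of Egr3 at 60 min differed between the purified Camk2a and Pvalb fractions by 0.95 on the log2 scale, by the test of that difference (edgeR adjusted p = 0.0403).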

How the results depend on the processing

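No alternative run changed the direction of any of the 61 member results named in the text; of their alternative values 1161 kept their side of the threshold, 44 passed where they had not and 61 no longer passed. Of the counts of members that passed in 48 comparisons, 842 alternatives stayed within 1.5 times and 72 did not; the cause was not tested. For shock against home cage, DESeq2 gave 1 member in purified Camk2a libraries at 15 min, 2 in purified Pvalb at 15 min and 1 in 60 min lysates, in place of 0. The 2 members in purified Camk2a libraries at 60 min became 1 with DESeq2 size factors or GC and length offsets, 0 with own-class score or sex as a covariate, and 0 to 3 on leaving out 1 library, when calls over all genes ran from 0 to 1858. The 1 in Pvalb at 60 min became 0 with GC and length offsets. The 2 in 15 min lysates became 0 on leaving out either the Pvalb or the Sst line. Box against home cage in those lysates gave 1 without the Camk2a line. For purified against lysate, Camk2a at 15 min gave 0 with no filter and 0 to 1 on leaving out 1 library, and Sst at 60 min 2 with DESeq2 and 0 to 2. The purified minus lysate response of Pvalb at 60 min gave 1 with DESeq2 and 0 to 1. In home cage, Camk2a minus Sst at 60 min gave 1 with DESeq2, 1 without Sst libraries of own-class score below 0, and 1 to 2 on leaving out 1 library, and Pvalb minus Sst at 15 min 0 to 1. The Camk2a minus Pvalb response at 60 min gave 0 to 2. The 60 minus 15 min response gave 1 with DESeq2 in Camk2a (0 to 1 on leaving out 1 library) and 1 in lysates.

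With the replicate number as a block, box against home cage in 15 min lysates gave 2 members in place of 0, purified against lysate 0 in place of 1 in Camk2a at 15 min and 1 in place of 0 at 60 min, and the Camk2a minus Pvalb response at 60 min 2 in place of 1. The block gave 0 in home cage for Camk2a minus Pvalb at 15 min (1 without it), for Pvalb minus Sst at 15 min (1) and 60 min (2) and for Camk2a minus Sst at 60 min (2). Each block lay within 1 line, so in those fits a line's level was that of a single reference replicate. These home cage counts follow from that design and do not bear on the differences between lines, though they are among the alternatives counted above. Purified libraries correlated best with the lysate of their own number in 9 of 10 cases in the Camk2a 15 min table and in 4 of 14 in the Pvalb 60 min table, a hint from the data and not from the design.

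Groups of 3 to 6 libraries, tables made separately for each line and set, and the marker content of purified Sst libraries limit these comparisons. Outside the Camk2a 15 min table Egr2 is the member with the fewest counts, and levels of Egr3 in that table could not be set against others.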
